A study of Arabidopsis thaliana with 2 samples.

Results

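UGT genes encode plant UDP-dependent glycosyltransferases, and 47 of them were followed here among 13217 nuclear genes measured in Col-0 and csb3 plants. A gene was taken when the array annotation paired a probe set with that gene alone. Its current RefSeq symbol also had to begin with UGT and a number. This rule uses no measured value, but members were chosen with earlier results of these data known. RefSeq gives such a symbol to 58 genes. The other 11 were not analysed: UGT71D1, UGT73B2, UGT73B3 and UGT89B1 share a probe set with another gene, and UGT73C6, UGT74E2, UGT74F2, UGT75B1, UGT75B2, UGT84A2 and UGT85A1 have none in that annotation. Each of the 47 has 1 probe set, and all 47 probe set names end in the plain form that Affymetrix gives to probe sets without listed cross-matching genes. Cross-hybridisation between close relatives was not tested.

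Total RNA came from whole plants of Arabidopsis thaliana in the Columbia ecotype, wild type (Col-0) or carrying csb3, grown for 5 weeks at 23 °C and 60% humidity under 10 h of light and 14 h of darkness. csb3 (constitutive subtilisin3) is a disease-resistant mutant found in a screen for constant activity of a pathogen-induced tomato subtilase promoter, and it affects HDS, an enzyme of the plastid isoprenoid pathway. The annotation gives no probe set for HDS, so the genotype could not be checked on its own gene. Both samples list 3 days of cold, and the labels name no other treatment. There is 1 array per genotype, and the design text speaks of 5 plants without saying whether they were pooled. No difference below therefore has a replicate check, and a lower level per cell cannot be told apart from fewer cells of a type.

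UGTs move a sugar, most often glucose from UDP-glucose, onto small molecules such as hormones, phenolics and toxins. The product is usually more soluble, is often stored in the vacuole, and in the case of hormones is commonly inactive. The number in a UGT name marks a family of related sequences and the letter a subfamily, and members of a family often, but not always, accept related molecules. In Arabidopsis this superfamily makes glucose conjugates of salicylic acid, abscisic acid, cytokinins and auxin, and also acts in the synthesis of flavonol glycosides, glucosinolates and phenylpropanoid esters.

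Signals are MAS5 intensities on a linear scale, scaled by the authors to a trimmed mean of 250 on each array. Signals below 50 were treated as dim and set to 50 before a ratio was taken, which makes the fold a lower bound (at least) where 1 of the signals is dim and leaves it undefined where both are. Calls of up or down in csb3 needed a ratio of 2-fold. Signals of different probe sets are not on a shared scale, so each gene is compared only with itself. Values of 50 or more were reached on at least 1 array by 27 of the 47 UGT genes (57.4%) and by 57.7% of all nuclear genes. They were reached on both arrays by 19 UGT genes, in csb3 alone by 6 and in Col-0 alone by 2.

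In csb3 plants 4 UGT genes were up and none was down at 2-fold. The 4 were UGT76B1, UGT87A2, UGT73D1 and UGT85A2, and they belong to 4 different number groups. Among all 13217 nuclear genes 3.62% were up and 2.28% were down, against 8.51% and 0% of the UGT genes. These are counts of few genes without replication. The 2 UGT genes closest to a call in the other direction, UGT84A3 and UGT76E11, were called down when the arrays were quantile normalized or scaled on a pair of reference genes, settings that called 2.90% and 4.21% of all nuclear genes down.

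**Figure D1:**
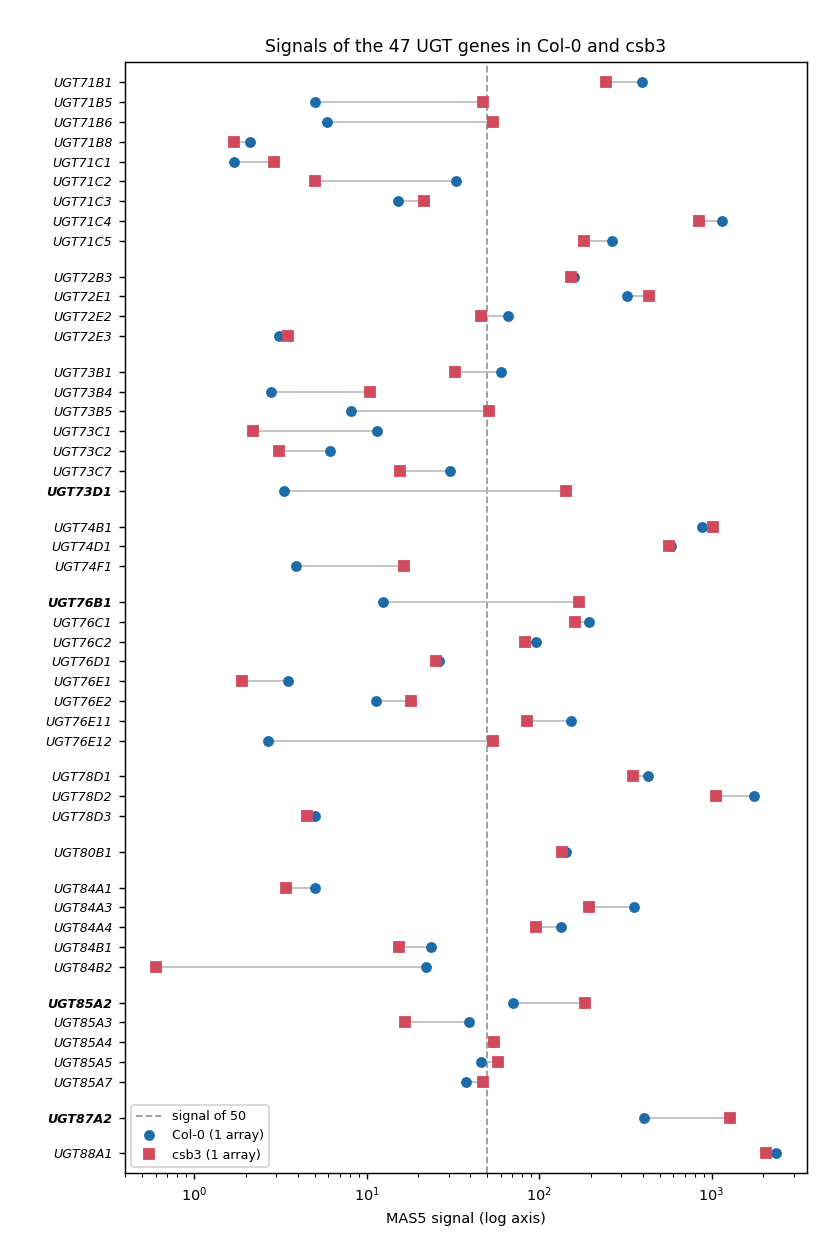
MAS5 signals of the 47 UGT genes on the Col-0 array (circles) and the csb3 array (squares), on a log axis and ordered by UGT number, with a dashed line at a signal of 50. Names in bold are the 4 genes called up, and in 20 genes both symbols lie left of the line.

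UGT76B1 (AT3G11340), which glucosylates isoleucic acid, salicylic acid and N-hydroxypipecolic acid, molecules that act in immunity, had 12.5 on the Col-0 array and 169.9 on the csb3 array. It was thus dim in wild type and clearly measured in the mutant, at least 3.40-fold higher there. UGT73D1 (AT3G53150) had 3.3 on the Col-0 array and 143.8 on the csb3 array, at least 2.88-fold higher. In both genes the Col-0 signal lay far under the floor, so the size of the fold is set by the floor, and with a floor of 100 neither reached 2-fold.

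UGT87A2 (AT2G30140), known for a role in flowering time, had 408.0 on the Col-0 array and 1276 on the csb3 array, a 3.13-fold difference. It was well above the floor on both arrays, and it was the member that kept its call with a floor of 100. UGT85A2 (AT1G22360) had 70.7 on the Col-0 array and 183.7 on the csb3 array, a 2.60-fold difference. Its Col-0 signal lay between the floors of 50 and 100, and it was not called with the higher one.

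Probe sets of the same gene show how far probe sets disagree, which is a part of the technical error. An error shared by a whole array does not enter it. For 46 genes with more than 1 probe set, their log2 ratios on this pair of arrays scattered with an SD of 0.65. This SD describes probe sets on these arrays and not plants. Of the 19 UGT genes measured on both arrays, 2 were higher and 4 were lower in csb3 by more than this, or 10.5% and 21.1%. Among the 6560 nuclear genes measured on both arrays the shares were 14.8% and 11.6%. The 2 higher ones were UGT87A2 and UGT85A2, and the 4 lower ones were UGT84A3, UGT76E11, UGT78D2 and UGT71B1.

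UGT genes measured on both arrays mostly had a somewhat lower signal in csb3. Of the 19, which include UGT87A2 and UGT85A2, 14 (73.7%) had a lower signal in csb3, against 43.8% of the 6560 nuclear genes. Their median log2 ratio was -0.21 with a range from -0.88 to 1.64, and the median of the nuclear genes was 0.08. Most of these differences were small, as 13 of the 19 (68.4%) lay within 1.5-fold, close to the 68.9% of the nuclear genes. The 19 leave out 6 UGT genes measured in csb3 alone, all higher there. They also leave out 2 measured in Col-0 alone, both lower in csb3. With these included, 16 of 27 UGT genes (59.3%) had a lower signal in csb3. The share was 45.6% among all nuclear genes measured on either array. The direction depends on how the arrays are scaled. The 18 spike-in controls were all lower on the csb3 array (median log2 ratio -0.98), and when csb3 was scaled up on them the median of the UGT genes measured on both arrays turned to 0.71 and none of the 21 then measured was lower. That scaling multiplies every csb3 signal by the same number. The median of all nuclear genes became 1.02 with 6.16% of them lower, so the turn to higher values was shared by all genes. The UGT median minus that of all nuclear genes was -0.29 as deposited and -0.31 with spike-in scaling. Over the settings tried it ran from -0.34 with reference gene scaling to -0.19 with a floor of 100. Scaling by a single factor moves both medians together, so it alters their difference only through genes that cross the floor. The narrow range is therefore not a check of the difference.

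**Figure D2:**
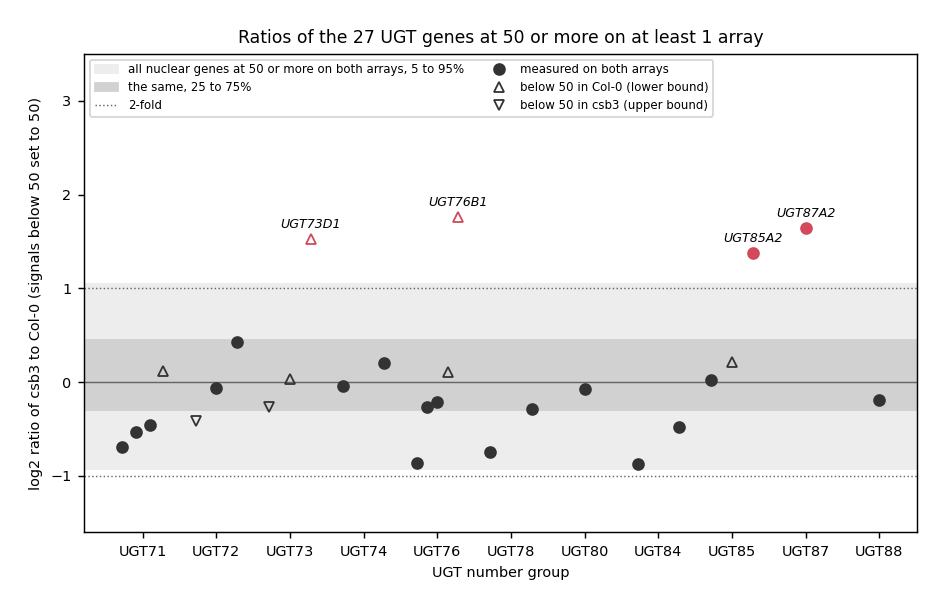
Log2 ratio of csb3 to Col-0, after signals below 50 were set to 50, for the 27 UGT genes at 50 or more on at least 1 array, by UGT number group. Filled circles were measured on both arrays and open triangles are bounds, the grey bands show all nuclear genes measured on both arrays, and the 4 genes above the upper dotted line are those called up.

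Several other members with a known role in salicylic acid metabolism or defence were too dim for a call. UGT74F1 (AT2G43840), which glucosylates salicylic acid, had 3.9 on the Col-0 array and 16.4 on the csb3 array, dim on both arrays. UGT76D1 (AT2G26480), which acts on dihydroxybenzoic acids made from salicylic acid, had 26.2 and 25.3. UGT71C3 (AT1G07260), which glucosylates methyl salicylate, had 15.3 and 21.4. All 3 were dim on both arrays and have no fold, and UGT74F2, another salicylic acid glucosyltransferase, was not analysed. UGT73B5 (AT2G15480), a stress gene needed for full resistance to Pseudomonas, had 8.1 on the Col-0 array and 51.3 on the csb3 array, and its neighbour UGT73B4 had 2.8 and 10.5. UGT73B5 just passed the floor and was at least 1.03-fold higher, short of a call with the floor of 50.

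Besides UGT73B5, a few members had a very low Col-0 signal and one near the floor in csb3. UGT76E12 (AT3G46660) had 2.7 on the Col-0 array and 54.0 on the csb3 array, at least 1.08-fold higher. UGT71B6 (AT3G21780), which forms the glucose ester of abscisic acid, had 5.9 and 54.4, at least 1.09-fold higher, and UGT71B5 (AT4G15280) had 5.0 and 47.3, dim on both. With a floor of 20 these 3 genes and UGT73B5 were called up too, which made 8 of the 47, while 5.42% of all nuclear genes were up with that floor. The share of genes at 50 or more in csb3 alone was 12.8% of the UGT genes and 3.47% of all nuclear genes. At 50 or more in Col-0 alone were 4.26% and 4.58%.

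In the UGT71 group, which holds several abscisic acid glucosyltransferases, 4 of 9 genes were measured and none was called. UGT71C5 (AT1G07240), which also makes the glucose ester of abscisic acid, had 263.1 on the Col-0 array and 181.5 on the csb3 array, a log2 ratio of -0.54. UGT71B1 (AT3G21750) had 396.6 and 244.9 (-0.70), and UGT71C4 (AT1G07250) had 1153 and 841.5 (-0.45). All 3 of the genes measured on both arrays had lower signals in csb3, whereas UGT71B6 had a higher one. UGT71B5, UGT71B8, UGT71C1, UGT71C2 and UGT71C3 were dim on both arrays, with 1.7 to 32.9 in Col-0 and 1.7 to 47.3 in csb3. UGT71C2 (AT2G29740) had the larger signal in Col-0, 32.9 against 5.0.

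The UGT72 group includes the UGT72E enzymes, which glucosylate monolignols, the building blocks of lignin, and related aldehydes. UGT72E1 (AT3G50740) had 322.3 on the Col-0 array and 432.9 on the csb3 array, a log2 ratio of 0.43. UGT72E2 (AT5G66690) went the other way, with 66.4 on the Col-0 array and 45.9 on the csb3 array, and was at least 1.33-fold lower. UGT72B3 (AT1G01420) was nearly equal on both arrays, at 159.7 and 153.4. UGT72E3 was dim on both, at 3.1 and 3.5, and none of the 4 genes was called.

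The UGT73 group, where the UGT73B and UGT73C subfamilies hold stress-responsive and detoxifying enzymes, had no gene among its 7 that reached 50 on both arrays. UGT73D1 was called up as described above. UGT73B1 (AT4G34138) had 59.9 on the Col-0 array and 32.7 on the csb3 array, at least 1.20-fold lower, in the opposite direction to UGT73B5. UGT73B4, UGT73C1, UGT73C2 and UGT73C7 were dim on both arrays, with 2.8 to 30.4 in Col-0 and 2.2 to 15.6 in csb3.

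In the UGT74 group the glucosinolate enzyme UGT74B1 (AT1G24100) had 883.8 on the Col-0 array and 1020 on the csb3 array, a log2 ratio of 0.21. UGT74D1 (AT2G31750), which glucosylates auxin and its oxidised form, had 581.8 and 565.5 (-0.04). Both lay well within the spread between probe sets of the same gene. The salicylic acid enzyme UGT74F1 was dim, as given above.

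The UGT76 group held UGT76B1, called up, beside genes with lower signals in csb3. UGT76C1 (AT5G05870) and UGT76C2 (AT5G05860), which inactivate cytokinins by attaching glucose to a ring nitrogen, had nearly the same ratios. UGT76C1 had 194.2 on the Col-0 array and 161.1 on the csb3 array (-0.27), and UGT76C2 had 95.5 and 82.6 (-0.21). UGT76E11 (AT3G46670), which can glycosylate flavonoids, had 153.8 on the Col-0 array and 84.8 on the csb3 array, a 1.81-fold lower signal and a log2 ratio of -0.86. It lies in the same subfamily as UGT76E12, whose signal was higher in csb3. UGT76D1, UGT76E1, which acts on a hydroxylated jasmonate, and UGT76E2 were dim on both arrays, with 3.5 to 26.2 in Col-0 and 1.9 to 25.3 in csb3.

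The UGT78 group makes flavonol glycosides, and both of its measured genes had lower signals in csb3. UGT78D2 (AT5G17050), the flavonoid glucosyltransferase that also acts on anthocyanidins, had 1771 on the Col-0 array and 1055 on the csb3 array, a 1.68-fold lower signal and a log2 ratio of -0.75. UGT78D1 (AT1G30530), the flavonol rhamnosyltransferase, had 427.0 and 349.4 (-0.29). UGT78D3, the flavonol arabinosyltransferase, was dim at 5.0 and 4.5. Of the 14 genes listed for flavonoid synthesis and its regulators, only 2 have a probe set of their own, so the list says little about the pathway. DFR, an anthocyanin pathway enzyme, had 62.7 on the Col-0 array and 52.6 on the csb3 array. BAN was dim on both, at 3.4 and 1.6.

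The UGT84 group held the largest difference towards Col-0 among UGT genes measured on both arrays. UGT84A3 (AT4G15490), which esterifies hydroxycinnamic acids such as sinapate with glucose, had 356.5 on the Col-0 array and 194.0 on the csb3 array, a 1.84-fold lower signal and a log2 ratio of -0.88. Its neighbour UGT84A4 (AT4G15500), of the same kind, had 134.4 and 96.6 (-0.48). UGT84A1 was dim at 5.0 and 3.4. The auxin glucosyltransferase UGT84B1 (AT2G23260) had 23.7 and 15.5, and UGT84B2 (AT2G23250) had 22.2 and 0.6, again dim on both. The group thus had 2 genes measured on both arrays, both with the lower signal in csb3 and neither called, and 3 dim genes without a ratio.

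In the UGT85 group UGT85A2 was up and its 4 relatives had signals from 16.7 to 57.9. UGT85A4 (AT1G78270) had 54.0 on the Col-0 array and 54.9 on the csb3 array (0.02). UGT85A5 (AT1G22370) had 46.1 and 57.9, at least 1.16-fold higher. UGT85A7 (AT1G22340) had 37.9 and 47.2, and UGT85A3 (AT1G22380) had 39.2 and 16.7. The last 2 were dim on both arrays and have no ratio.

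The remaining groups have 1 gene each. UGT80B1 (AT1G43620), a sterol glucosyltransferase, had 143.6 on the Col-0 array and 136.4 on the csb3 array (-0.07). UGT88A1 (AT3G16520) had 2365 and 2066 (-0.19). Both differed by less than the spread between probe sets, unlike UGT87A2. Over the whole family, 20 genes were dim on both arrays, with 0.6 to 47.3 in csb3 and 1.7 to 39.2 in Col-0. The csb3 signal was the higher one in 8 and the lower one in 12. The same count over all dim nuclear genes was not made. Without a floor, 10 of all 47 UGT genes, dim or not, were up at 2-fold and 4 were down. Of all nuclear genes 11.5% were up and 17.3% were down in that setting.

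Many UGT genes lie side by side on the chromosomes. By gene order in the TAIR10.1 RefSeq annotation, 30 UGT genes form 12 runs of 2 to 5 adjacent protein-coding genes, and 26 of the 47 lie in such runs. UGT85A2 and UGT73D1 are the called genes among the 26. UGT85A2 lies between UGT85A7 and UGT85A5 on chromosome 1. UGT85A5 was not called, and UGT85A7 was dim on both arrays and has no ratio. UGT73D1 (3.3 on the Col-0 array and 143.8 on the csb3 array) lies next to UGT73C7 (30.4 and 15.6) on chromosome 3. UGT73C7 was dim on both arrays and has no ratio.

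Adjacent genes that were measured on both arrays formed 3 pairs, and in all 3 pairs both signals were lower in csb3. This was also the direction of 14 of the 19 UGT genes measured on both arrays. Of the genes in these pairs, UGT84A3 alone differed by more than the SD of 0.65 between probe sets. The adjacent UGT85A2 and UGT85A5 both had higher signals in csb3, but UGT85A5 was dim in Col-0 and so is not counted. UGT71C5 and UGT71C4 had log2 ratios of -0.54 and -0.45, UGT84A3 and UGT84A4 of -0.88 and -0.48, and UGT76C2 and UGT76C1 of -0.21 and -0.27. Of the 10 runs with at least 2 of the 47 genes, 5 held both a gene at 50 or more and a gene dim on each array. In the UGT84A run, for example, UGT84A1 was dim while UGT84A3 and UGT84A4 were measured. The genes of each pair belong to the same subfamily, and whether their probe sets read each other's transcripts was not tested.

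**Figure D3:**
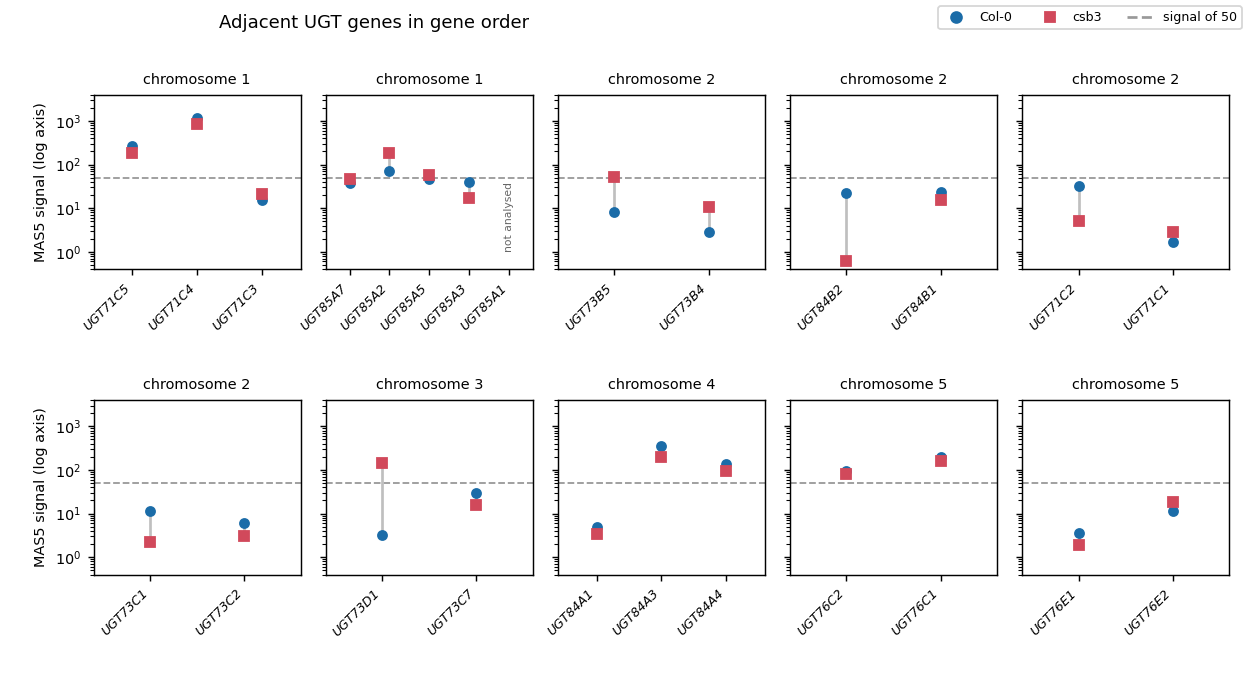
MAS5 signals (log axis) on the Col-0 array (circles) and the csb3 array (squares) for 10 runs of adjacent UGT genes, in gene order on the chromosome named above each panel, with a dashed line at a signal of 50. UGT85A2 and UGT73D1 reach 2-fold. Of the genes next to them, UGT85A5 was not called, and UGT85A7 and UGT73C7 were dim on both arrays and have no ratio. Both genes of the UGT71C, UGT84A and UGT76C pairs above the line have the lower signal in csb3.

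Genes that supply or share the acceptors of UGTs were little covered. Of 78 genes in 6 lists (UDP-sugar supply, flavonoid synthesis, glucosinolate core synthesis, other salicylic acid modification, TGA factors, and inactivation of cytokinin, auxin and abscisic acid), 7 have a probe set of their own. The lists of UDP-sugar supply, glucosinolate core synthesis and TGA factors have none. In the hormone list 4 of 16 genes have a probe set and 2 of these were up. GH3.3, which conjugates auxin to amino acids, had 15.3 on the Col-0 array and 207.8 on the csb3 array, at least 4.16-fold higher. WES1 (GH3.5), which acts on auxin and salicylic acid, had 84.9 and 306.0, 3.60-fold higher. GH3.17 had 28.1 and 65.8, short of a call, and GH3.1 was dim at 11.6 and 1.1. The salicylic acid methyltransferase BSMT1 was dim, at 5.0 and 23.4.

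Whole plants hold several organs, and markers of 4 of them were looked up. Of 28 markers 4 have a probe set of their own, all from the root list of 9, so the leaf, flower and seed markers could not be used to check the labelled tissue. Of these 4, PYK10 and NAI2, which act in endoplasmic reticulum bodies of roots and seedlings, were up. PYK10 had 27.8 on the Col-0 array and 1220 on the csb3 array, and NAI2 had 26.5 and 241.1. The root hair expansins EXPA7 (19.2 and 28.4) and EXPA18 (11.5 and 28.3) were dim on both arrays. The 4 signals add up to 85.0 on the Col-0 array and 1518 on the csb3 array, a sum that is mostly PYK10 and not a level of root tissue. Indicators of RNA quality differed as well, with a 3′ over 5′ signal ratio for actin of 2.06 on the Col-0 array and 4.91 on the csb3 array and a GAPDH ratio of 1.29 and 1.40. The part of organ content and RNA quality in the UGT values was not tested.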

How the data were processed

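Total RNA of Col-0 and csb3 plants had been labelled and hybridised to Affymetrix ATH1 arrays. The deposited values are intensity signals of 22810 probe sets, made by the authors with MAS5 (version not given in the sources used here) and scaled by them to a trimmed mean of 250, 2% being left out at each end. The methods describe SAM on triplicate samples, which could not be repeated with 1 array per genotype, so no test was run and the number of arrays limits the precision. The array annotation names 1 gene for 13513 probe sets, more than 1 gene for 503 and none for 8794. Of the first kind, 13436 were matched to RefSeq genes of TAIR10.1 by gene ID, and the probe set with the highest mean signal was kept for each gene. RefSeq served for names and gene order only. A planned look at promoter and protein sequences was not made.

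Signals below 50 were set to 50, csb3 was divided by Col-0, and genes at 2-fold or more were called up or down, with Python 3.11.15, NumPy 2.4.6 and pandas 2.3.3 (figures with matplotlib 3.10.9). The calling rule was run on simulated data as a check of the code only. The planted changes were 4-fold in bright signals, so they had to be called. Every UGT gene was to be named. In the other lists at most 4 genes each were to be named, those past 2-fold with the highest signal. DFR, BAN, BSMT1, GH3.1, GH3.17 and the root expansins fall outside that rule and were named after their values were seen. Members and lists were chosen with earlier results of these data known. Alternatives were floors of 20 and 100, no floor, 32 added, thresholds of 1.5-fold and 4-fold, other scalings, and other choices of probe sets and symbols.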

Additional observations from a re-analysis of the deposited data

How the results depend on the processing

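No paired analysis was possible because Col-0 and csb3 have 1 array each. The number of UGT genes up in csb3 was 4, and it was 8 with a floor of 20 (5.42% of all nuclear genes were up there), 8 with 32 added (3.21%), 10 without a floor (11.5%), 1 with a floor of 100 (2.37%), 0 at 4-fold (0.643%) and 11 with spike-in scaling (30.5%, more than the share of UGT genes). The number down was 0, and it was 4 without a floor (17.3% of all nuclear genes were down there), 4 at 1.5-fold (7.73%), 2 with quantile normalization (2.90%) and 2 with reference gene scaling (4.21%). The median log2 ratio of the 27 genes at 50 or more on at least 1 array was -0.07. For all nuclear genes so measured it was 0.06. Under other settings the set of measured genes could change too, and the median of all nuclear genes is given in brackets. With a floor of 100 the median was -0.19 over 19 UGT genes at 100 or more (0). It was -0.21 over 26 with median scaling (-0.01) and -0.27 over 27 with quantile normalization (-0.04). It was -0.41 over 23 with reference gene scaling (-0.14) and 0.90 over 29 with spike-in scaling (0.96). Spike-in scaling shifts csb3 by 0.98 and reference gene scaling (AT4G34270 and AT2G28390) by -0.23 on the log2 scale. None of the 4 called genes changed sign under the scalings, floors and probe set choices tried. Most of these settings could not have shown such a change. A floor cannot reverse a sign, and the shift of -0.23 is smaller than the log2 ratios of the 4 genes. Using the mean of all probe sets or only plain probe sets changed no UGT value, because each gene has 1 plain probe set. Adding 4 genes whose synonyms hold a UGT number left the counts at 4 and 0. Spike-in scaling, reference gene scaling and added synonyms were chosen after the data were seen. Signal over background limits the 20 genes that were dim on both arrays.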
